A study of Mus musculus with 7 samples.

Results

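The genes described here encode the ATP-sensitive potassium (KATP) channel, the voltage-gated calcium channels and the calcium pumps of the endoplasmic reticulum (ER) of pancreatic β-cells. They were chosen by symbol: Kcnj11 and Abcc8 for the KATP channel, Cacna1a, Cacna1c, Cacna1d and Cacna1h for calcium channel pores, Cacnb2 and Cacna2d1 for auxiliary channel subunits, and Atp2a2 and Atp2a3 for the pumps. These are 10 of the 35013 gene symbols in the count table, and all 10 passed the filter on low counts in every comparison. In a β-cell, glucose metabolism raises ATP, which closes KATP channels and depolarizes the membrane. Voltage-gated calcium channels then open, and the calcium that enters triggers the release of insulin. Sarco/endoplasmic reticulum calcium ATPases (SERCA) return calcium from the cytosol to the ER, where IP3 receptors can release it again.

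RNA-seq was performed on β-cells sorted from the islets of 7 mice (3 db/+, 2 db/db and 2 with Aldh1a3 deleted, called KO_db/db), with 1 library per mouse. The db/db mice are homozygous for the Lepr db mutation, which disables leptin signalling and leads to obesity and diabetes, whereas db/+ mice are lean carriers. Aldh1a3, which encodes a retinaldehyde dehydrogenase and marks dedifferentiated β-cells, was deleted in KO_db/db mice with 2 floxed alleles (Aldh1a3 fl/fl) by RIP-Cre(herr), a Cre driven by an insulin promoter. As described with the glucose measurements of the study, the db/db and db/+ controls carried the same Cre and 1 floxed allele (Aldh1a3 fl/+). All groups carried a Cre-activated tdTomato reporter (tdT fl/+). Every group thus had Cre, the controls could carry a recombined allele, and no group was wild type. These full genotypes are given for the colony and not mouse by mouse. By the methods of the study the mice were adults of both sexes and were fasted before islets were isolated. The age and sex of each mouse are not in the labels, and the gate of this sort is not given in the sources used here.

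Aldh1a3 was at 0.205, 0.0727 and 0.584 CPM (the count of a gene relative to the total of its library) in db/+, at 99.3 and 195 CPM in db/db, and at 4.93 and 7.90 CPM in KO_db/db. The knockout libraries were below both db/db libraries and above all db/+ libraries. CPM here are scaled between libraries by the TMM method of edgeR, total counts ran from 27496645 to 35852785, and a count of 3, taken as the detection floor, equalled 0.0721 to 0.123 CPM. The Aldh1a3 value of db/+ replicate 2 rests on 2 counts and lies below the floor of that library (0.109 CPM). A list of 10 β-cell markers took 34.3% to 38.7% of the counts in db/+ and 24.8% to 27.0% in the other libraries. The largest, Ins2, was at 259717 to 287244 CPM in db/+, 153659 and 159470 in db/db, and 200022 and 151165 in KO_db/db. Other members differed from this sum. Iapp was at 17591 to 22268 CPM in db/+, 27280 and 22736 in db/db, and 18854 and 19528 in KO_db/db. Mafa was at 326 to 419 CPM in db/+, 58.2 and 92.7 in db/db, and 382 in both KO_db/db libraries. The part of these differences in the results below was not tested. The 7 α-cell markers took 0.0664% to 0.175%. The 4 δ-cell markers took 0.0108% and 0.0203% in db/db and 0.0333% to 0.202% in the other libraries. In db/+, 3 markers of PP cells took 0.0103% to 0.0310% and 6 ductal markers 0.0161% to 0.0177%, and in the other libraries they took 0.0417% to 0.0668% and 0.0250% to 0.0531%. The 6 neural and glial markers took 0.0124% to 0.0136% in db/+ and 0.0154% to 0.0241% in the other libraries. In db/db, 5 lymphocyte markers took 0.000131% and 0.000315% and 5 macrophage markers 0.00878% and 0.00678%. In the other libraries these took 0.00186% to 0.00353% and 0.00191% to 0.00493%. The part of these cell types in the results below was not tested either. Of 42 genes of pancreatic acinar cells, which make digestive enzymes, 42 and 41 were above 0 in KO_db/db replicates 1 and 2, where the list took 18.1% and 2.05% of the counts. In the other libraries 23 to 40 of these genes were above 0 and took 0.00705% to 0.0591%. Both KO_db/db libraries thus lay above all others in acinar counts, and replicate 1 stood furthest apart. The calls of the 10 genes that were lost or gained without replicate 1 are given below. Leaving it out does not remove this difference, since replicate 2 also exceeded every db/db and db/+ library. The effects of the knockout and of acinar RNA cannot be told apart here. In such bulk samples fewer cells of a type and less RNA per cell cannot be told apart.

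Between db/db and db/+ β-cells, 3 of the 10 genes were higher and 3 were lower. The pores Cacna1a, Cacna1c and Cacna1d rose, the subunit Cacna2d1 and both SERCA genes fell, and the KATP genes were not called. By edgeR's quasi-likelihood test with a Benjamini-Hochberg adjusted p under 0.05, 19.9% of the 13406 genes tested were higher and 18.0% lower, and 3 in 10 each way is near enough to this background that the count shows nothing particular to the 10. The libraries of both groups did not overlap for 4 of the 10 genes upwards and 3 downwards, against 33.3% and 29.9% of all genes tested. The median log2 fold change of the 10 genes was 0.05, and that of all genes 0.01.

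Between KO_db/db and db/db, edgeR called none of the 10 genes. All 10 had a positive log2 fold change, with a median of 0.36 against -0.02 for all 13486 genes, of which 47.9% were positive. Without KO_db/db replicate 1 all 10 were also positive, from 0.18 for Abcc8 to 2.33 for Cacna1h, but Cacnb2 was at -0.13 without KO_db/db replicate 2 and at -0.19 without db/db replicate 1. For 9 of the 10, all but Cacnb2, both KO_db/db libraries were above both db/db libraries, which held for 27.3% of all genes (30.2% in the opposite direction). The test called 0.126% of all genes higher and 0.193% lower. At an unadjusted p under 0.05 it found 1 of the 10 (Atp2a3) and 2814 of all genes, and DESeq2 also called 1 of the 10, again Atp2a3, while calling 5.40% of all genes higher and 4.63% lower. Between KO_db/db and db/+, 5 of the 10 were higher and none lower by edgeR, against 20.5% and 17.9% of 13228 genes. Here 5 of the 10 did not overlap upwards and 1 downwards, against 31.7% and 32.3% of all genes, and the median log2 fold change was 0.42 against -0.00. The 3 comparisons share libraries, so their values for a gene are not independent of each other.

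**Figure D1:**
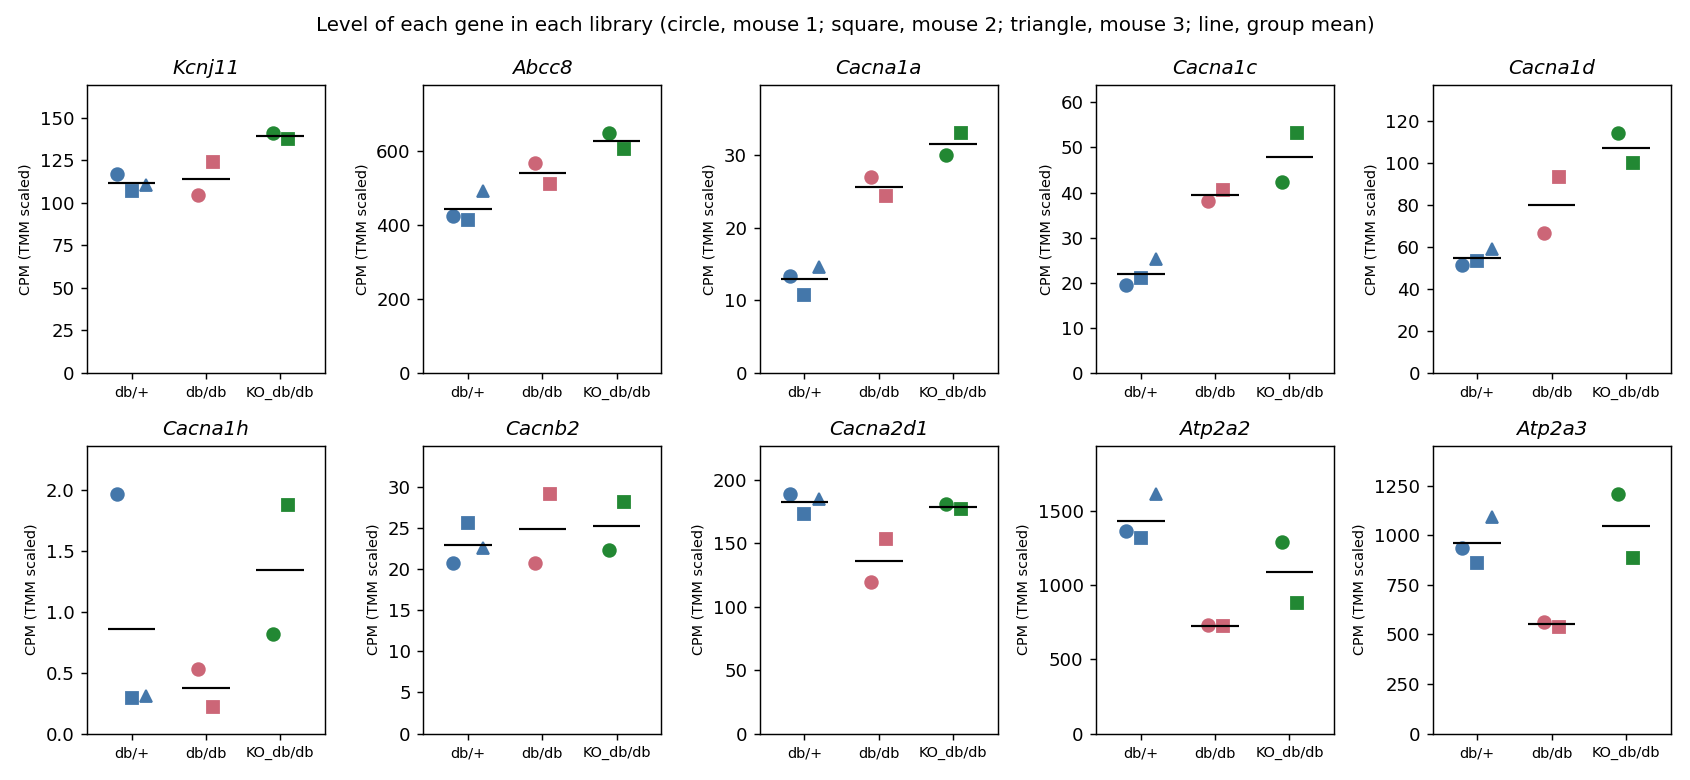
Level of each of the 10 genes (CPM, linear axis from 0) in the db/+, db/db and KO_db/db libraries. Points are mice and lines group means, and the Cacna1a panel shows db/+ at 10.7 to 14.6 CPM with the other libraries at 24.3 to 33.0 CPM.

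Kcnj11 encodes the potassium pore of the KATP channel, and Abcc8 encodes the sulfonylurea receptor that surrounds this pore and is the target of the drugs named in it. The genes are neighbours on the minus strand of chromosome 7 (GRCm38), Kcnj11 (ENSMUSG00000096146.2) from 46093953 to 46100764 and Abcc8 (ENSMUSG00000040136.10) from 46104523 to 46180033, with 3758 bases between them. Kcnj11 was at 117, 107 and 111 CPM in db/+, at 104 and 124 CPM in db/db, and at 141 and 138 CPM in KO_db/db. The db/db libraries lay on both sides of all db/+ libraries, and both knockout libraries lay above all others. The log2 fold change of Kcnj11 was 0.01 in db/db against db/+ (standard error 0.12, 95% interval -0.27 to 0.29, adjusted p = 0.953 by edgeR). The knockout value was 0.30 relative to db/db (standard error 0.15, adjusted p = 0.318 by edgeR) and 0.33 against db/+ (standard error 0.09, adjusted p = 0.0257 by edgeR).

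Abcc8 was at 426, 414 and 492 CPM in db/+, at 569.7 and 512 CPM in db/db, and at 650.3 and 607 CPM in KO_db/db. The 3 groups did not overlap and stood in the order db/+, db/db, KO_db/db. Neighbouring groups in this order were not called different. The log2 fold change of Abcc8 was 0.26 in db/db against db/+ (standard error 0.13, 95% interval -0.06 to 0.57, adjusted p = 0.172 by edgeR) and 0.23 between KO_db/db and db/db (standard error 0.18, adjusted p = 0.494 by edgeR). KO_db/db was above db/+ by 0.51 (standard error 0.14, adjusted p = 0.0304 by edgeR).

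The rise of both KATP genes over db/+ was small, and its call depended on single libraries. For Kcnj11 the adjusted p by edgeR was 0.129 without KO_db/db replicate 1, 0.0710 without KO_db/db replicate 2, and 0.0595, 0.0846 and 0.0503 without db/+ replicates 1, 2 and 3, with log2 fold changes of 0.30 to 0.36. For Abcc8 it was 0.0995 and 0.0655 without KO_db/db replicates 1 and 2 and 0.107 and 0.0925 without db/+ replicates 1 and 2, with log2 fold changes of 0.45 to 0.55. With the mouse number as a block neither gene was called (adjusted p = 0.0786 for Kcnj11 and 0.0731 for Abcc8 by edgeR), and in the fit of all 7 libraries Kcnj11 was not called (adjusted p = 0.0565 by edgeR).

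Compared per length, as CPM per kilobase (kb) of annotated exon, Abcc8 stood above Kcnj11. Its level was 1.66, 1.76 and 2.02 times that of Kcnj11 in db/+, 2.48 and 1.88 times in db/db, and 2.10 and 2.01 times in KO_db/db. The ranges of the 3 groups overlapped, with the widest range in db/db. The proteins assemble in equal numbers in the channel. The exon length is that of all annotated exons together, so the ratio of levels also carries the choice of transcripts.

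Of the 4 pore genes, 3 were higher in db/db and in KO_db/db than in db/+, against 19.9% and 20.5% of all genes. The db/db call of 1 of them, Cacna1d, held in 7 of 11 alternative fits. Of the other pore genes tested, 1 was higher and 4 were not called in db/db, and 1 was higher and 2 were not called in KO_db/db. The 4 genes were chosen with earlier results known, so their share shows no enrichment of pore genes. Each α1 pore subunit gene defines a channel type. Cacna1c and Cacna1d encode L-type pores, which are the targets of dihydropyridines. Cacna1a encodes the P/Q-type pore known from nerve terminals, and Cacna1h encodes a T-type pore that opens near the resting potential. The 3 were Cacna1a, Cacna1c and Cacna1d, and their libraries did not overlap with those of db/+.

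Cacna1a (ENSMUSG00000034656.17) lies on the plus strand of chromosome 8 from 84388440 to 84640246. It was at 13.4, 10.7 and 14.6 CPM in db/+, at 27.0 and 24.3 CPM in db/db, and at 30.0 and 33.0 CPM in KO_db/db. Every db/db and KO_db/db library exceeded every db/+ library. Cacna1a rose by 0.96 on the log2 scale in db/db against db/+ (standard error 0.17, adjusted p = 0.00572 by edgeR), a fold change of 1.95, and by 1.30 in KO_db/db over db/+ (standard error 0.15, adjusted p = 0.00167 by edgeR), a fold change of 2.46. The difference of KO_db/db from db/db was 0.31 (standard error 0.15, 95% interval -0.06 to 0.68, adjusted p = 0.291 by edgeR).

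Cacna1c (ENSMUSG00000051331.15) lies on the minus strand of chromosome 6 from 118587240 to 119196418. Cacna1c was at 19.5, 21.1 and 25.2 CPM in db/+, at 38.2 and 40.5 CPM in db/db, and at 42.4 and 53.2 CPM in KO_db/db. The 3 groups were again in the order db/+, db/db, KO_db/db without overlap. Cacna1c rose by 0.82 on the log2 scale in db/db against db/+ (standard error 0.14, adjusted p = 0.00589 by edgeR) and by 1.13 in KO_db/db over db/+ (standard error 0.15, adjusted p = 0.00258 by edgeR). Between KO_db/db and db/db the value was 0.29 (standard error 0.16, 95% interval -0.11 to 0.70, adjusted p = 0.350 by edgeR).

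Cacna1d (ENSMUSG00000015968.17) lies on the minus strand of chromosome 14 from 30039939 to 30491455. It was at 51.5, 53.1 and 59.2 CPM in db/+, at 66.6 and 93.2 CPM in db/db, and at 114 and 99.8 CPM in KO_db/db. The db/db libraries lay between the other groups, and the lower of them was close to the highest db/+ library. Cacna1d rose by a log2 fold change of 0.98 in KO_db/db over db/+ (standard error 0.11, adjusted p = 0.00142 by edgeR), a fold change of 1.97. In db/db against db/+ it rose by 0.52 (standard error 0.16, adjusted p = 0.0430 by edgeR), and this call was lost without db/db replicate 2 (log2 fold change 0.25, adjusted p = 0.187) and without db/+ replicate 1, 2 or 3 (0.48, 0.50 and 0.59, adjusted p = 0.126, 0.117 and 0.0562, all by edgeR). Between KO_db/db and db/db the value was 0.43 (standard error 0.20, 95% interval -0.08 to 0.95, adjusted p = 0.294 by edgeR).

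Without KO_db/db replicate 1 the rise over db/+ was 1.36 for Cacna1a, 1.27 for Cacna1c and 0.87 for Cacna1d on the log2 scale, and each of the 3 was still called by edgeR (adjusted p = 0.00885, 0.00734 and 0.00939). These 3 genes were called in KO_db/db against db/+ in each of 11 alternative fits, as were Cacna1a and Cacna1c in db/db against db/+.

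Cacna1h (ENSMUSG00000024112.16; chromosome 17 from 25374285 to 25433783, minus strand) was low in all libraries. It was at 1.97, 0.291 and 0.309 CPM in db/+ (48, 8 and 9 counts), at 0.533 and 0.216 CPM in db/db (18 and 9 counts), and at 0.814 and 1.87 CPM in KO_db/db (20 and 77 counts). A single db/+ library was as high as the higher knockout library, and the libraries within each group differed more than 2-fold. The log2 fold changes were -1.21 in db/db against db/+, 1.87 between KO_db/db and db/db, and 0.69 between KO_db/db and db/+ (standard errors 1.02, 0.74 and 0.91, adjusted p = 0.386, 0.240 and 0.578 by edgeR). No difference was detectable for Cacna1h beyond this spread.

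The upstream sequences of the pores that rose are shown to let their composition be compared with that of the genes that fell. RefSeq (GRCm38.p6) start sites gave 9 windows of 250 bases upstream for 5 of the 10 genes (Cacna1c, Cacna1d, Cacnb2, Cacna2d1 and Atp2a3). Each window below ends at the base before a start, reads 5′ to 3′ on the strand of the gene, and has every GC box in capitals (GGGCGG on either strand, so also its complement CCGCCC, with overlapping matches counted). Cacna1c has 3 such windows and Cacna1d has 2, and both Cacna1d windows are printed with the 1 Cacna1c window that holds GC boxes.
Cacna1c, chr6:119108496-119108745, minus strand: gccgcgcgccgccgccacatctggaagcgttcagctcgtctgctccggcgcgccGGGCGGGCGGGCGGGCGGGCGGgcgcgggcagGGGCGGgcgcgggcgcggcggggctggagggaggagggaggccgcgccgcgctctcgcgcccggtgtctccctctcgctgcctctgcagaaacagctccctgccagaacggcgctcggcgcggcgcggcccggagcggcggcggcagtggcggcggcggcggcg
Cacna1d, chr14:30353487-30353736, minus strand: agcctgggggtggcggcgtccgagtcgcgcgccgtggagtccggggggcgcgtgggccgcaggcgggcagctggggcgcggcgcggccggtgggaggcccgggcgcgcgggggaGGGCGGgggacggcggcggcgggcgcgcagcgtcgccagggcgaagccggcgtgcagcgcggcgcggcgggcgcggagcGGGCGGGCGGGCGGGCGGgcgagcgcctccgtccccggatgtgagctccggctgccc
Cacna1d, chr14:30491157-30491406, minus strand: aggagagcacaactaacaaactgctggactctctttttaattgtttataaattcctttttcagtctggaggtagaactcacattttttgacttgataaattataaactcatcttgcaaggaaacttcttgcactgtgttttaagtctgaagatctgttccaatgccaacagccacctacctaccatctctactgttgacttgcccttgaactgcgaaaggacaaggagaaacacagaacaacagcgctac
The first Cacna1d window was 86.4% G and C and held 5 GC boxes. The second lies at the far start, was 39.6% G and C and held none. The Cacna1c window was 82.8% G and C and held 6, while the other 2 Cacna1c windows, not printed, were 50.4% and 51.6% G and C and held none. The median over 32851 windows of the same length was 52.4% G and C, and 32.7% of them held a GC box. The counts are per gene and do not tell which start was used.

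Set beside each other per kb of exon, Cacna1d stood first among the pore genes in every library, and the sum of the pore genes was higher in both groups with the Lepr mutation on both alleles. The sum over the 10 pore genes of the genome was 6.78, 6.61 and 7.65 CPM per kb in db/+, 10.2 and 12.4 in db/db, and 14.6 and 14.4 in KO_db/db. The groups did not overlap, and the knockout mean (14.5) was the highest. Cacna1d took 60.2%, 63.6% and 61.3% of the sum in db/+, 52.0% and 59.4% in db/db, and 62.2% and 54.9% in KO_db/db. The mean share of Cacna1a was 16.0% in db/+, 20.2% in db/db and 19.1% in KO_db/db, and that of Cacna1c was 14.7%, 16.6% and 15.6%, with SDs of 1.05 to 4.31 percentage points. The order of these 2 genes depends on the exon length used. In CPM not divided by length, Cacna1c stood above Cacna1a on average (21.9 against 12.9 in db/+, 39.4 against 25.6 in db/db and 47.8 against 31.5 in KO_db/db). Cacna1b, the N-type pore, took 4.98% to 5.44% on average. Both shares of Cacna1d in db/db were under those in db/+, but the shares of KO_db/db overlapped with both groups.

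**Figure D2:**
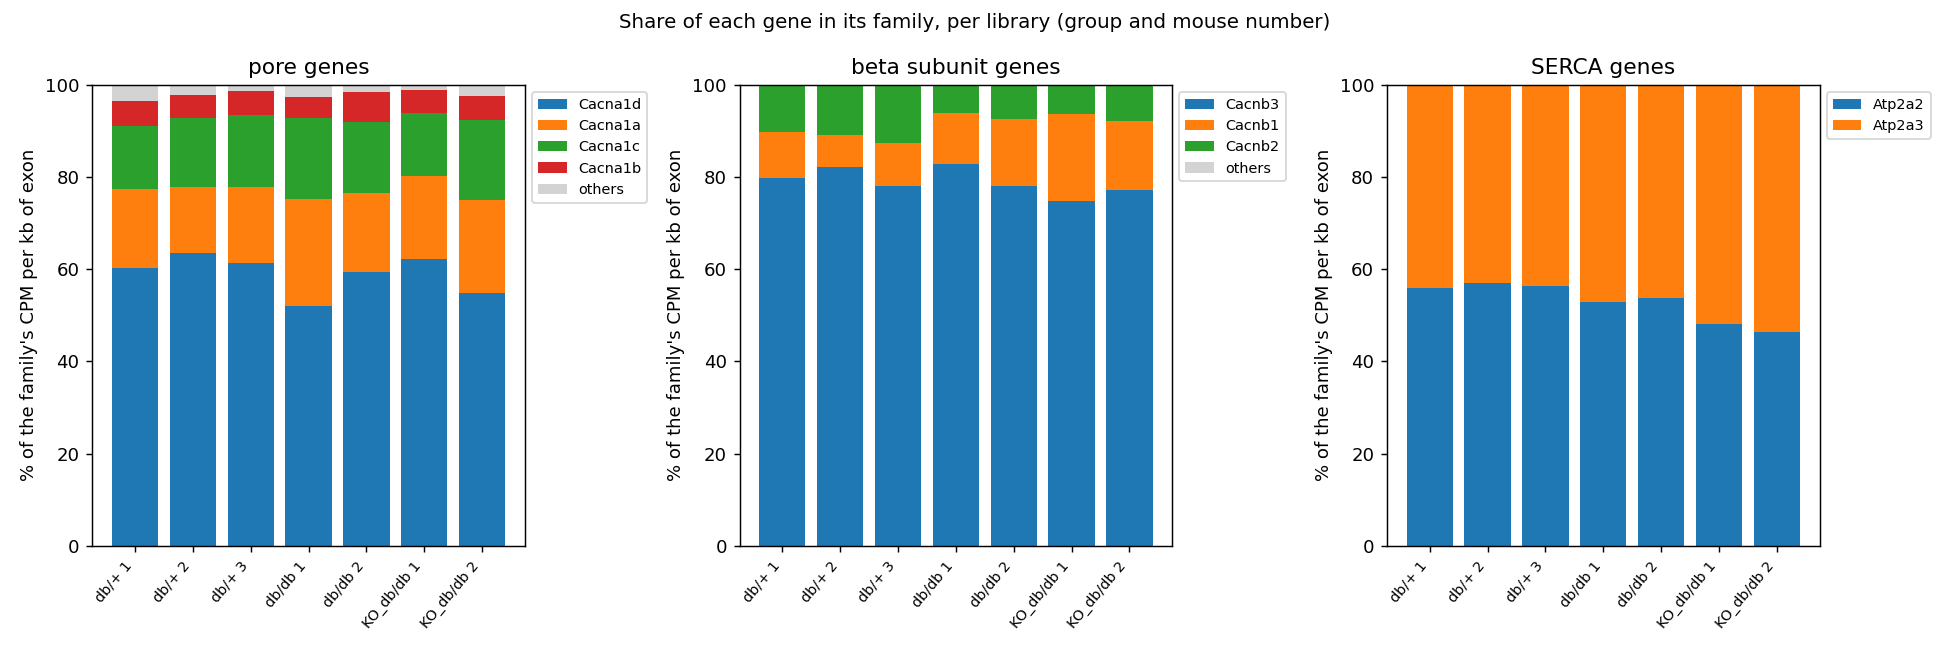
Share of each gene in the summed CPM per kb of its family, as a stacked bar per library, for 10 pore genes, 4 β subunit genes and 3 SERCA genes. Cacna1d fills 52.0% to 63.6% of the pore bars, and the Atp2a3 share of the SERCA bars goes from 43.0% to 44.2% in db/+ over 46.2% to 47.0% in db/db to 51.9% to 53.7% in KO_db/db.

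Of the auxiliary subunits, Cacnb2 was not called in any comparison and Cacna2d1 was called only in db/db against db/+, where it was lower. Cacnb2 encodes a cytosolic β subunit, which carries pores to the membrane and sets their gating, and Cacna2d1 encodes an extracellular α2δ subunit, the binding site of gabapentin. Cacnb2 (ENSMUSG00000057914.15; chromosome 2 from 14603088 to 14987908, plus strand) was at 20.7, 25.5 and 22.5 CPM in db/+, at 20.7 and 29.1 CPM in db/db, and at 22.4 and 28.2 CPM in KO_db/db. All 3 groups overlapped. The log2 fold change of Cacnb2 was 0.09 in db/db against db/+ (95% interval -0.34 to 0.52), 0.03 in KO_db/db against db/db (-0.54 to 0.61) and 0.15 in KO_db/db against db/+ (-0.20 to 0.49), with adjusted p = 0.715, 0.947 and 0.450 by edgeR.

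The share of Cacnb2 among the β subunit genes was lower in db/db and KO_db/db than in db/+. Per kb of exon it took 10.3%, 10.8% and 12.4% of the sum in db/+, 6.16% and 7.40% in db/db, and 6.33% and 7.70% in KO_db/db, so that db/db and KO_db/db overlapped each other and lay below db/+. The size of this share depends on the exon length used. With counts not divided by length, Cacnb2 took 29.0% on average in db/+, 19.0% in db/db and 19.5% in KO_db/db. Per kb, Cacnb3 took 74.8% to 82.8% over all libraries. Cacnb1 took 8.78% on average in db/+, 12.7% in db/db and 17.0% in KO_db/db. Both Cacnb1 and Cacnb3 were themselves called higher in db/db and in KO_db/db than in db/+, as given below with the other genes of the pathway.

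Cacna2d1 (ENSMUSG00000040118.15; chromosome 5 from 15934691 to 16374511, plus strand) was at 189, 173 and 185 CPM in db/+, at 119 and 153 CPM in db/db, and at 180.4 and 177 CPM in KO_db/db. Both db/db libraries were below all others, and the knockout libraries lay within the db/+ range. Cacna2d1 fell by 0.45 on the log2 scale in db/db against db/+ (standard error 0.14, adjusted p = 0.0435 by edgeR). This call was lost without db/db replicate 1 (log2 fold change -0.28, adjusted p = 0.138), without db/+ replicates 1, 2 and 3 (-0.42, -0.48 and -0.43, adjusted p = 0.125, 0.0834 and 0.0906) and with the mouse number as a block (-0.44, adjusted p = 0.0805, all by edgeR). KO_db/db differed from db/+ by -0.02 (95% interval -0.25 to 0.20, adjusted p = 0.862 by edgeR) and from db/db by 0.40 (95% interval -0.04 to 0.84, adjusted p = 0.264 by edgeR). The upstream window of this gene, which fell where the pores rose, is printed for comparison.
Cacna2d1, chr5:15934441-15934690, plus strand: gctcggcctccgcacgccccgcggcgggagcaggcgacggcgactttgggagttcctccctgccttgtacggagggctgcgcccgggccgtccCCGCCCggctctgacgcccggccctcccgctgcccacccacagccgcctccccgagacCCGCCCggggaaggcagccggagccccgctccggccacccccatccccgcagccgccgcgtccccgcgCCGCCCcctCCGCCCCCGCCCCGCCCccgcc
It was 82.4% G and C and held 6 GC boxes, as many as the printed Cacna1c window.

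Cacna2d1 supplied 97.6% of the α2δ transcripts per kb in KO_db/db, 97.2% in db/db and 98.9% in db/+ on average. The level of Cacna1d per kb was 0.268, 0.302 and 0.315 times that of Cacna2d1 in db/+. It was 0.549 and 0.599 times in db/db and 0.623 and 0.556 times in KO_db/db. This ratio within a library does not depend on the scaling between libraries, and it separated db/db and KO_db/db from db/+ but not from each other.

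The SERCA genes were the most abundant of the 10 per kb and had the largest falls in db/db among those called. Atp2a2 encodes the SERCA pump found in most tissues, and Atp2a3 encodes a pump of lower calcium affinity that is known from β-cells and blood cells. Atp2a2 (ENSMUSG00000029467.15; chromosome 5 from 122453513 to 122502225, minus strand) was at 1362, 1316 and 1614 CPM in db/+, at 733 and 722 CPM in db/db, and at 1292 and 878 CPM in KO_db/db. The db/db libraries were below all others, and both knockout libraries were between the groups. Atp2a2 fell by 1.00 on the log2 scale in db/db against db/+ (standard error 0.15, adjusted p = 0.00343 by edgeR), which is 2.00 times lower. In KO_db/db it differed from db/db by 0.59 (standard error 0.26, 95% interval -0.05 to 1.24, adjusted p = 0.265 by edgeR) and from db/+ by -0.39 (standard error 0.22, adjusted p = 0.210 by edgeR).

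Atp2a3 (ENSMUSG00000020788.15; chromosome 11 from 72961169 to 72993044, plus strand) was at 935, 861 and 1089.6 CPM in db/+, at 565 and 539 CPM in db/db, and at 1209 and 884 CPM in KO_db/db. The db/db libraries were again the lowest, and the knockout libraries overlapped with db/+. Atp2a3 fell by 0.83 on the log2 scale in db/db against db/+ (standard error 0.15, adjusted p = 0.00673 by edgeR). Atp2a3 also had the largest difference between KO_db/db and db/db relative to its error among the 10 genes, 0.94 on the log2 scale (standard error 0.23, 95% interval 0.35 to 1.53, unadjusted p = 0.0089), which edgeR did not call after adjustment over all genes (adjusted p = 0.135). It was called by DESeq2 (adjusted p = 0.00019), by edgeR with no filter on low counts (adjusted p = 0.0174) and by edgeR with all 7 libraries in one fit (adjusted p = 0.0453). Of all genes, the unfiltered fit called 4.10% higher and 3.90% lower, and the fit of all libraries 3.66% higher and 2.28% lower. Against db/+ the log2 fold change in KO_db/db was 0.13 (standard error 0.20, 95% interval -0.36 to 0.62, adjusted p = 0.646 by edgeR).

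The SERCA values of the knockout moved with KO_db/db replicate 1, the library with 18.1% acinar counts. Without it Atp2a2 was below db/+ by edgeR (log2 fold change -0.71, adjusted p = 0.0440), and Atp2a3 was at -0.12 (adjusted p = 0.655). Against db/db the values without it were 0.28 for Atp2a2 and 0.69 for Atp2a3 (adjusted p = 0.781 and 0.421 by edgeR). With the acinar genes left out of the counts they were 0.59 and 0.94 (adjusted p = 0.220 and 0.112 by edgeR). The part of acinar RNA in these SERCA levels was not tested.

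The balance of the SERCA genes shifted towards Atp2a3, and this balance did not rest on that library alone. Replicate 2 also held acinar counts (2.05%), and the part of acinar RNA in the balance was not tested. Per kb of exon, Atp2a3 took 44.2%, 43.0% and 43.7% of the SERCA sum in db/+, 47.0% and 46.2% in db/db, and 51.9% and 53.7% in KO_db/db. The 3 groups did not overlap, and the gap to db/db was larger in KO_db/db replicate 2 than in replicate 1. The ratio of Atp2a2 to Atp2a3 accordingly went from 1.29 ± 0.0319 (SD, n = 3) in db/+ over 1.14 ± 0.0261 (SD, n = 2) in the db/db libraries to 0.895 ± 0.0466 (SD, n = 2) in KO_db/db. The SERCA sum itself was 417 ± 48.3 CPM per kb in db/+, 224 ± 4.70 in db/db and 377 ± 91.6 in KO_db/db. Atp2a1, the muscle SERCA gene, was at 0 counts in all 7 libraries, below a floor of 0.0721 to 0.123 CPM. The upstream window of Atp2a3 is shown as the one SERCA window at hand.
Atp2a3, chr11:72960919-72961168, plus strand: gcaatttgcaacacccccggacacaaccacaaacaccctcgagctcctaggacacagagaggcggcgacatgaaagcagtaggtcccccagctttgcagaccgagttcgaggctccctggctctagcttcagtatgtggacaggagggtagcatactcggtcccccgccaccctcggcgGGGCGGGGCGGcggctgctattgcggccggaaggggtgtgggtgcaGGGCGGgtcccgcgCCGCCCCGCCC
It was 66.8% G and C and held 5 GC boxes. None of the 9 windows of the 10 genes held the letters AGGTCA (a nuclear receptor half-site, in 14.0% of all windows), TGACGTCA (a cyclic AMP response element, in 1.55%) or TGCTGAC (a Maf half-site, in 3.81%) on either strand. The E-box CANNTG was in 66.2% of all windows and in 6 of the 9.

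**Figure D3:**
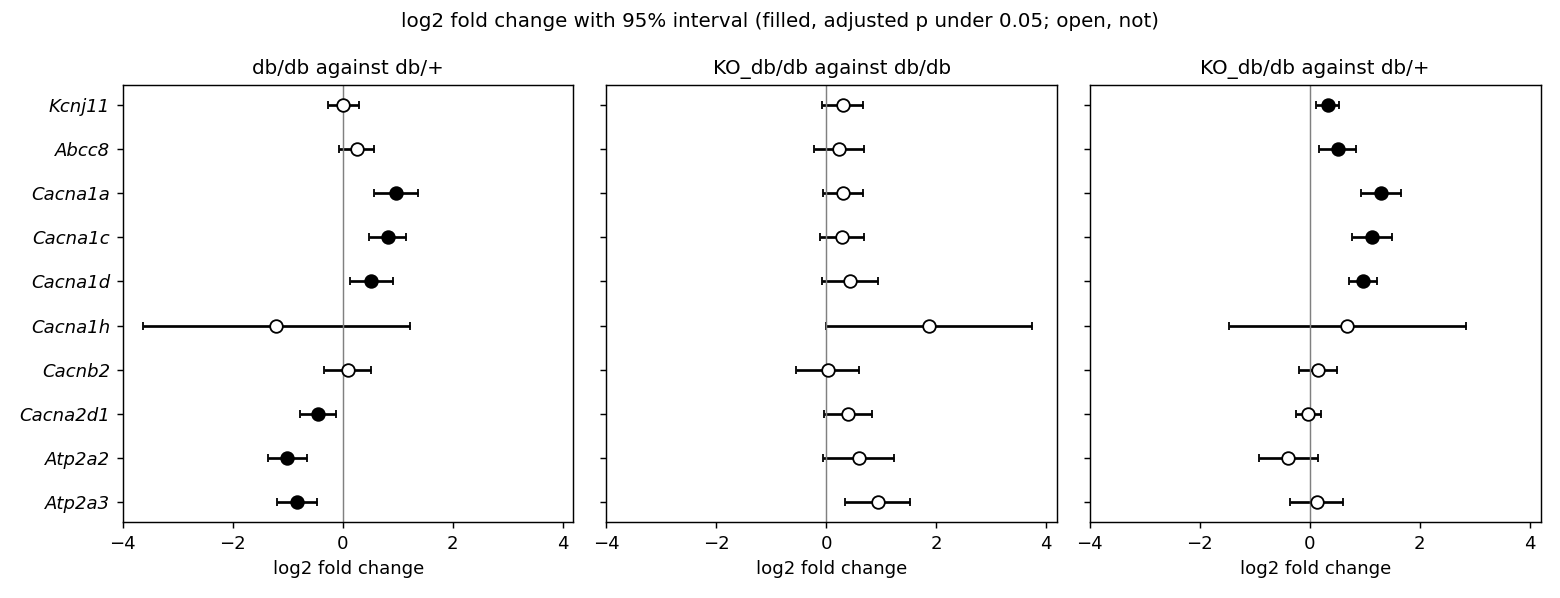
Log2 fold change of the 10 genes with its 95% interval in each comparison, filled where the adjusted p by edgeR was under 0.05. In db/db against db/+ 3 genes are filled to the right of 0 and 3 to the left, none is filled between KO_db/db and db/db, and 5 are filled to the right between KO_db/db and db/+.

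Ranked per kb of exon in db/+, the means were 235 CPM per kb for Atp2a2, 182 for Atp2a3, 54.9 for Abcc8, 30.3 for Kcnj11, 14.7 for Cacna2d1, 4.33 for Cacna1d, 1.73 for Cacnb2, 1.13 for Cacna1a, 1.03 for Cacna1c and 0.0876 for Cacna1h. Cacna1a and Cacna1c, neighbours in this order, did not differ beyond their SDs of 0.174 and 0.139. In KO_db/db Atp2a3 stood above Atp2a2 per kb within each library (229 against 212 and 167 against 144 CPM per kb), and Cacna1a and Cacna1c (2.76 and 2.26 CPM per kb) stood above Cacnb2 (1.91). With counts not divided by length, the ratio of Atp2a2 to Atp2a3 was 1.07 in KO_db/db replicate 1 and 0.993 in replicate 2. The order of the SERCA genes in replicate 1 thus depends on the exon length.

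Of the other genes of calcium and KATP signalling, 72 were taken as a list, of which 55 were tested in db/db against db/+. There 17 were higher and 7 lower by edgeR, against 19.9% and 18.0% of all genes, with a median log2 fold change of 0.51, where all genes had 0.01. Of the 17, Kcnj8, Abcc9, Camk2a, Slc8a3, Cacna1i and Cacng3 passed the filter on low counts only through the db/db libraries. Such genes could enter the test only as higher, so the count, the median and the roles below carry this limit and show no direction of the list. For KO_db/db and db/+, the test found 17 above and 6 below db/+ of 49 tested, against 20.5% and 17.9% of all genes, with a median of 0.27, and without KO_db/db replicate 1 13 were higher and 4 lower. Between KO_db/db and db/db edgeR called none of 56 tested. At an unadjusted p under 0.05 it found 11 of these 56 and 2814 of all 13486 genes, so the 11 show nothing particular to the list. DESeq2 called 3 higher and 7 lower, against 5.40% and 4.63% of all genes. By role, those higher in db/db than in db/+ included both KATP channel paralogs (Kcnj8 and Abcc9), 4 of 12 genes of calmodulin and its kinases, 2 of 4 sodium-calcium exchangers, 2 of 2 tested β subunit genes and 2 of 3 tested γ subunit genes, while of 6 genes of the mitochondrial calcium uniporter 1 was higher and 2 were lower. Of the other roles, store-operated entry had 2 higher and 2 lower of 5, regulators of SERCA and channels 1 higher and 2 lower of 5 tested, other pores 1 higher of 5 tested, and other calcium pumps 1 lower of 4 tested, while 0 of 3 other α2δ subunits and 0 of 4 tested ER release channels were called. Kcnj8 had 12 and 19 counts in db/db against 2, 0 and 0 in db/+, and its call was kept in 4 of 10 alternative fits, while Abcc9 had 107 and 77 counts against 2, 0 and 9, and its call was lost without db/db replicate 1 (adjusted p = 0.0647 by edgeR). Camk2a had 23 and 163 counts in db/db against 2, 2 and 1 in db/+, and Slc8a3 had 36 and 23 against 1, 2 and 3. Cacna1i had 22 and 23 counts against 4, 3 and 4, and Cacng3 had 162 and 62 against 4, 14 and 6. The values below are those of the called genes with the largest changes (at most 8 in a comparison, with a mean of at least 1 CPM), with Cacnb3, the other IP3 receptors and the KATP paralogs added for their families after their values were seen.

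Of the other β subunit genes, Cacnb1 and Cacnb3 rose in db/db and in KO_db/db against db/+, and Cacnb4 had 0 to 3 counts per library and was not tested. Cacnb1 was at 6.92, 5.71 and 5.77 CPM in db/+, at 12.6 and 19.4 CPM in db/db, and at 22.9 and 18.9 CPM in KO_db/db. It rose by 1.36 (log2) for db/db (standard error 0.22, adjusted p = 0.00456 by edgeR) and by 1.77 in KO_db/db (standard error 0.16, adjusted p = 0.000844 by edgeR) against db/+. Cacnb3 rose by 0.80 and 0.73 (adjusted p = 0.00729 and 0.00818 by edgeR). Rem2, a small GTPase that binds β subunits and reduces calcium currents, was at 5.12 to 7.50 CPM in db/+ and at 14.2 to 20.3 CPM in the db/db and KO_db/db libraries, and rose by 1.30 in db/db and 1.67 in KO_db/db (adjusted p = 0.00380 and 0.00132 by edgeR). Gem, of the same GTPase family, fell by 1.30 in KO_db/db against db/+ (2.89 and 4.18 against 9.34, 11.1 and 6.08 CPM, adjusted p = 0.0173 by edgeR), a call lost without KO_db/db replicate 1 (adjusted p = 0.0864) and without db/+ replicate 1 or 2 (adjusted p = 0.0516 and 0.0532, all by edgeR). Without KO_db/db replicate 1 Cacnb1, Cacnb3 and Rem2 were still called in KO_db/db over db/+ (1.62, 0.77 and 1.62, adjusted p = 0.00571, 0.0313 and 0.00881 by edgeR).

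The γ subunit genes Cacng3 and Cacng4, whose products are better known as regulators of AMPA receptors, rose in db/db against db/+ by 3.37 and 2.33 on the log2 scale (adjusted p = 0.0103 and 0.0206 by edgeR). Both calls were lost without db/db replicate 1, where the values were 2.30 and 1.67 (adjusted p = 0.0788 and 0.118 by edgeR). Cacng3 was at 4.80 and 1.49 CPM in db/db against 0.164 to 0.509 CPM in db/+ and 0.570 and 0.632 CPM in KO_db/db. Cacng4 was at 8.35 and 3.82 CPM in db/db against 0.412 to 1.67 CPM in db/+ and 1.07 and 1.79 CPM in KO_db/db. Cacna2d2, a further α2δ subunit, rose by 1.72 in KO_db/db against db/+ (adjusted p = 0.0387 by edgeR), from 0.481 to 0.737 CPM in db/+ to 2.97 and 1.24 CPM, and was called in 6 of 11 alternative fits. Its call was lost without KO_db/db replicate 1 (0.96, adjusted p = 0.306 by edgeR), without db/+ replicate 1, 2 or 3 (adjusted p = 0.0782, 0.0872 and 0.0828 by edgeR) and with the mouse number as a block (adjusted p = 0.126 by edgeR).

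Of the ER calcium release channels, only the 3 IP3 receptors were tested in KO_db/db against db/+. All 3 rose, where 20.5% of all genes were higher. Ryr1, Ryr2 and Ryr3, the others of this role, did not pass the filter on low counts there. Ryr2 was at 0.163 and 0.219 CPM in KO_db/db, 1.15 and 1.24 in db/db, and 0.0819 to 0.509 in db/+. Itpr3, an IP3 receptor that releases calcium from the ER, was at 44.3, 42.7 and 47.7 CPM in db/+, at 35.0 and 53.1 CPM in db/db, and at 137 and 115 CPM in KO_db/db. Both knockout libraries were above all others by more than 2-fold. Itpr3 rose by a log2 fold change of 1.49 in KO_db/db over db/+ (standard error 0.11, adjusted p = 0.000663 by edgeR) and by 1.35 without KO_db/db replicate 1 (adjusted p = 0.00412). Itpr1 and Itpr2, the other IP3 receptors, also rose against db/+, by 0.71 and 0.78 (adjusted p = 0.0112 and 0.0159 by edgeR). The call of Itpr1 was lost in the fit of all 7 libraries (0.71, adjusted p = 0.120 by edgeR) and that of Itpr2 without KO_db/db replicate 2 (0.53, adjusted p = 0.0913 by edgeR). Against db/db the Itpr3 log2 fold change was 1.52 (standard error 0.24, adjusted p = 0.0844 by edgeR and 1.46e-07 by DESeq2). KO_db/db replicate 1 had 18.1% and replicate 2 had 2.05% acinar counts while Itpr3 was at 137 and 115 CPM, and the part of acinar RNA in Itpr3 was not tested.

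Atp2c1, the calcium pump of the Golgi apparatus, was at 172, 169 and 147 CPM in db/+, at 59.2 and 54.6 CPM in db/db, and at 104 and 88.3 CPM in KO_db/db. The groups did not overlap, with KO_db/db between the others. Atp2c1 fell by 1.54 (log2) for db/db (standard error 0.12, adjusted p = 0.00059 by edgeR) and by 0.75 in KO_db/db (standard error 0.12, adjusted p = 0.00488 by edgeR) against db/+. Mrln, which encodes a micropeptide known to inhibit SERCA in muscle, fell by 1.39 (log2) in db/db (adjusted p = 0.00173 by edgeR), from 30.4 to 32.3 CPM in db/+ to 10.1 and 14.0 CPM, and was at 13.3 and 16.5 CPM in KO_db/db, where it fell by 1.06 against db/+ (adjusted p = 0.00176 by edgeR). The plasma membrane pumps Atp2b2 and Atp2b4 rose in KO_db/db against db/+ by 1.15 and 1.19 (adjusted p = 0.00595 and 0.00602 by edgeR), and by 0.86 and 0.91 without KO_db/db replicate 1 (adjusted p = 0.0300 and 0.0336).

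Orai2, a pore subunit of store-operated calcium entry, was at 10.5, 13.1 and 11.3 CPM in db/+, at 70.0 and 33.0 CPM in db/db, and at 24.7 and 21.5 CPM in KO_db/db. The groups did not overlap, and the db/db libraries differed more than 2-fold. Orai2 rose by 2.12 on the log2 scale in db/db against db/+ (standard error 0.30, adjusted p = 0.00268 by edgeR), and by 0.99 in KO_db/db against db/+ (standard error 0.14, adjusted p = 0.00327 by edgeR). Camk1d, a calmodulin-dependent kinase, rose by 1.74 in db/db and 1.68 in KO_db/db against db/+ (adjusted p = 0.00721 and 0.00951 by edgeR), and the latter call was lost without KO_db/db replicate 1 (adjusted p = 0.0557). Without that library Orai2, Atp2c1, Mrln, Itpr1 and Itpr2 were still called in KO_db/db against db/+ (0.88, -0.88, -0.92, 0.73 and 0.98, adjusted p = 0.0199, 0.0149, 0.00829, 0.0440 and 0.0181 by edgeR).

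**Figure D4:**
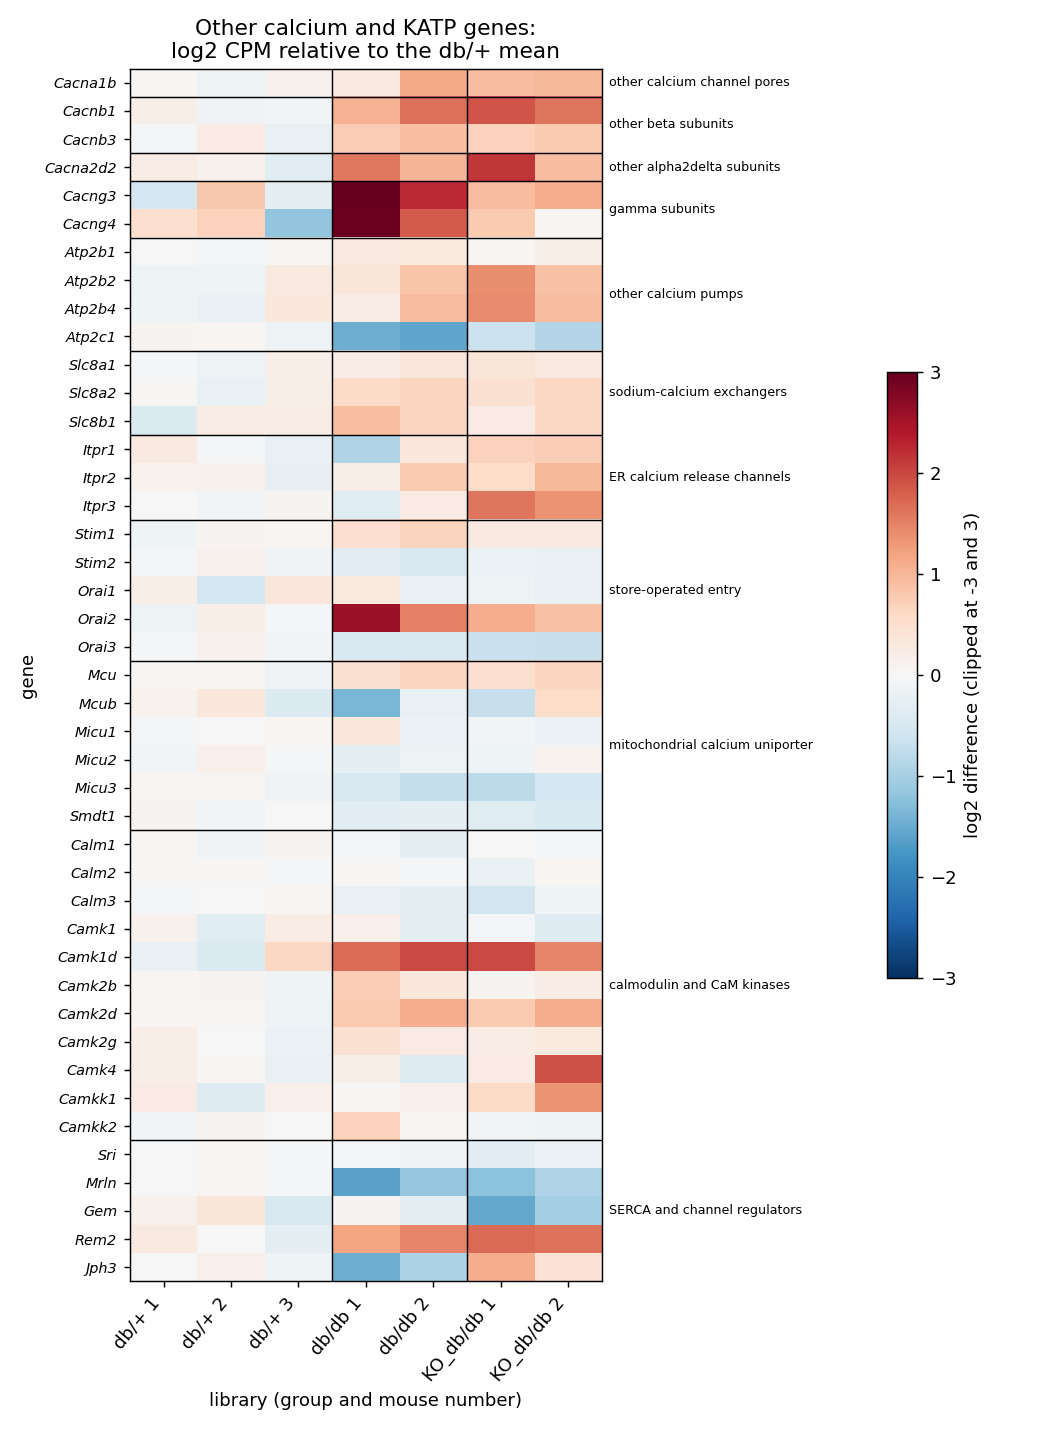
Log2 CPM of the 43 other calcium and KATP genes with a mean of at least 1 CPM, relative to the mean of the db/+ libraries, per library and grouped by role (red higher, blue lower, values beyond -3 and 3 drawn at these limits). Cacnb1, Rem2 and Camk1d are red in all 4 db/db and KO_db/db libraries, and Itpr3 is strongly red in the KO_db/db libraries.

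To find genes with the same pattern over the 7 libraries, log2 CPM were centred on each gene's mean and compared by their root mean square difference, among 7812 genes with a mean of at least 10 CPM. The most similar to Kcnj11 were Tor1aip1, Anxa6 and Fam120a (0.0521 to 0.0555), to Abcc8 Krt18, Tfip11 and Arhgef16 (0.0468 to 0.0584), and to Cacna1d Mink1 and Bcor (0.0501 and 0.0617). Atp2a3 was most similar to Phka1 (0.0672), followed by Plk3 and Ogdh (0.105 and 0.109). None of the genes named for likeness is among the 10 or the 72.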

How the data were processed

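The authors sequenced poly-A RNA of sorted β-cells from 7 mice. The submitters' processing notes name bcl2fastq 2.19, kallisto 0.44.0 and GRCm38, while strand and annotation release are not given in the sources used here. The deposited table holds estimated counts per gene symbol as whole numbers, not normalized, for 35013 symbols, and was used as counts. Of these, 34222 matched GENCODE M21 and gave coordinates and exon lengths. Genes were filtered by filterByExpr with a minimum count of 10, scaled by TMM and tested per pair of groups with the quasi-likelihood test of edgeR 4.0.16 in R 4.3.3, with Benjamini-Hochberg adjustment over all genes tested and a threshold of 0.05. Standard errors are the absolute log2 fold change divided by the square root of the F statistic.

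Alternatives were other size factors, DESeq2 1.42.0, no filter, 1 fit of all 7 libraries, the mouse number as a block, acinar genes left out, and each library left out. The procedure was tested on simulated data: of 100 genes changed by 1 on the log2 scale it recovered 42 in db/db against db/+, 7 for KO_db/db with db/db and 49 for KO_db/db with db/+, and of 100 changed by 2 it recovered 75, 70 and 75. Among unchanged genes it called 8, 5 and 11. No other genes were changed, whereas in the data 5069, 43 and 5081 were called. The adjusted threshold depends on this number, so the recovered counts do not give the power in the data. All 10 genes were named, and of the list of 72 the called genes with the largest changes, at most 8 per comparison. Genes and lists were chosen with earlier results of these data known. Replicates differed by more than sampling noise (chi-square per degree of freedom 18.4 to 425). Exons of other genes overlap Cacna1a, Cacna1d, Cacna1h, Cacnb2 and Atp2a2, and without stated strand those reads cannot be told apart. The overlapping genes in the table had few counts over all libraries (Chdh, at Cacna1d, 61, Tpsg1, at Cacna1h, 5 and Gm10849, at Cacnb2, 12). For likeness of pattern, up to 3 genes were named for each of Kcnj11, Abcc8, Cacna1d and Atp2a3, and 1 is not reported here.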

Additional observations from a re-analysis of the deposited data

How the results depend on the processing

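In db/db against db/+, Cacna1a, Cacna1c, Atp2a2 and Atp2a3 were called in each of 11 alternative fits, as were Cacna1a, Cacna1c and Cacna1d in KO_db/db against db/+. In KO_db/db against db/db, where edgeR called none of the 10 genes, none of the list of 72 and 43 of all genes, DESeq2 called 1, 10 and 1396, the fit with no filter 1, 10 and 1570, and the fit of all 7 libraries 1, 3 and 818. Leaving out 1 library gave 0 of the 10, 0 to 3 of the 72 and 0 to 225 of all genes, with 0 of all genes without db/db replicate 1. In KO_db/db against db/+, leaving out 1 library gave 3 to 4 of the 10 and 3060 to 4725 of all genes, and in db/db against db/+ 3331 to 4394 of all genes. A single remaining library was then assumed to vary like the other group, and fewer samples were fitted. The cause of the other shifts was not tested.

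Some changes that were not called reversed when 1 library was left out. The log2 fold change of Kcnj11 in db/db against db/+ ran from -0.127 to 0.131. Cacnb2 ran from -0.18 to 0.32 in db/db against db/+, from -0.19 to 0.30 in KO_db/db against db/db and from -0.0362 to 0.294 in KO_db/db against db/+. In KO_db/db against db/+, Cacna1h ran from -0.0543 to 2.16 and Atp2a3 from -0.12 to 0.33, the lowest Atp2a3 value being without KO_db/db replicate 1.

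With the mouse number as a replicate block, edgeR called 5, 0 and 3 of the 10 genes in db/db against db/+, KO_db/db against db/db and KO_db/db against db/+, and 4516, 22 and 3786 of all genes. Nothing in the labels ties mice of 1 number together, and deviations of same-numbered libraries had correlations of -0.108 to 0.0815. Groups of 2 and 3 mice limit the precision throughout. With counts not divided by exon length, 17 of 24 shares within families moved by more than 1 SD.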

Other observations

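Jph3, which encodes a junctophilin that holds the ER close to the plasma membrane, lies outside the rule for naming genes and was chosen after its values were seen. It was at 12.6, 14.0 and 11.6 CPM in db/+, at 4.59 and 6.54 CPM in db/db, and at 27.0 and 17.3 CPM in KO_db/db, so that the groups did not overlap and db/+ lay in the middle. Jph3 fell by 1.22 on the log2 scale in db/db against db/+ (standard error 0.21, adjusted p = 0.00548 by edgeR) and rose by 0.80 in KO_db/db against db/+ (standard error 0.20, adjusted p = 0.0223 by edgeR), comparisons that share the db/+ libraries. Between KO_db/db and db/db its log2 fold change was 2.00 (standard error 0.31, adjusted p = 0.0844 by edgeR and 4.45e-07 by DESeq2). The rise against db/+ was called in 7 of 11 alternative fits. It was lost without KO_db/db replicate 1 (0.44, adjusted p = 0.107 by edgeR), without db/+ replicate 1 or 3 (adjusted p = 0.0651 and 0.0582 by edgeR) and with the mouse number as a block (adjusted p = 0.0910 by edgeR). Without KO_db/db replicate 1 the value against db/db was 1.64 (adjusted p = 0.133 by edgeR).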
